A study of Mus musculus with 19 samples.

Results

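The genes described here are the growth factors that the oocyte sends to the cells of its follicle, *Gdf9*, *Bmp15*, *Bmp6* and *Fgf8*, and *Kit*, the receptor through which the oocyte receives the signal of the follicle. They were chosen by gene name for this role, and all 5 were found among the 25891 genes of the deposited table. RNA was sequenced from 19 libraries of mouse MII oocytes (mature oocytes arrested in the second metaphase of meiosis) and 2cell embryos. The labels give 5 MII libraries of CPEB3+/- and 5 of CPEB3-/- and, for 2cell embryos, 5 libraries of CPEB3+/- and 4 of CPEB3-/-. The females were BL6 mice of 6 to 10 weeks, given 5 IU of PMSG and, 48 h later, 5 IU of hCG, the hormones that bring follicles to growth and ovulation. The 2cell embryos were taken 37 h after hCG, following mating and culture outside the female. CPEB3 is a protein that binds the 3′UTR of mRNAs. In the study's CPEB3-/- females both *Cpeb3* alleles were floxed and Cre was driven by the *Zp3* promoter, so that the deletion was directed to oocytes and the follicle cells kept the gene. The libraries labelled Het are called CPEB3+/- here, as in the study. Its methods describe the comparison genotype as a single floxed allele together with the same Cre, or as wild type. The males mated in the study's embryo work were wild type, so an embryo named by the maternal genotype can carry a paternal *Cpeb3* copy.

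Values are FPKM (fragment numbers divided by transcript length and by the mapped fragments of each library). Each library was made from a pool of 5 oocytes or embryos per the methods, and FPKM is a share of the RNA in the pool, so less RNA of a gene per cell and fewer cells that hold it cannot be told apart. The methods also state that mRNA was captured before amplification. Whether this capture varied with the length of poly(A) tails was not tested. The labels do not say which libraries came from separate females, so p values measure the spread between these libraries, which may be technical. The depth, estimated from the step between low values, was 17.1 to 23.5 M fragments (M, mega), and the summed FPKM was 77208 to 86770 in MII and 113886 to 159320 in 2cell libraries. *Cpeb3* itself had 0.0755 FPKM ± 0.0240 (SD, n = 5) in the MII libraries labelled CPEB3+/- and 0.162 ± 0.0325 (n = 5) in those labelled CPEB3-/-, without overlap (two-sided exact permutation test, p = 0.00794), so *Cpeb3* RNA was not lower in the libraries with the CPEB3-/- label, and the genotypes named here are those of the labels. The value is a sum over all exons, deleted or not. The 9 oocyte markers summed to 934 to 1410 FPKM in MII and 109 to 135 in 2cell libraries, and the 8 markers of the 2cell stage to 6.11 to 27.9 and 302 to 610. Within MII, the oocyte marker sum was 1170 to 1410 FPKM in CPEB3+/- and 934 to 1090 in CPEB3-/- libraries, and the 2cell marker sum 6.11 to 10.6 and 14.6 to 27.9. Of the 12 markers of granulosa and cumulus cells, 9 were in the table and together had 0.347 to 0.883 FPKM per library, with *Foxl2* at 0 in every MII library. Of 8 blood and mast cell markers 3 were in the table, with sums of 0.0512 to 0.428 FPKM in MII and 46.2 to 146 in 2cell libraries, led by the globin gene *Hba-a1*. The part of any of these in the results below was not tested.

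GDF9 and BMP15 are members of the TGF-β family that the oocyte secretes, alone or as a heterodimer, and they drive granulosa cells to divide and cumulus cells to expand. They bind BMPR2 with type I receptors on the follicle cells and act through SMAD proteins. BMP6 is a further oocyte ligand of the same family, and FGF8 is a fibroblast growth factor that acts together with BMP15 on the metabolism of cumulus cells. KIT is the receptor tyrosine kinase on the oocyte surface that answers KIT ligand from granulosa cells and supports oocyte growth through PI3K signalling. At the MII stage the growth of the oocyte is complete and its RNA is no longer renewed by transcription, and most maternal RNA is removed by the 2cell stage, when the embryonic genome is switched on.

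The ends of the 3′UTRs are shown because CPEB proteins are known for binding there. In the annotation (GENCODE vM21, GRCm38) *Gdf9* lies on chromosome 11 from 53431023 to 53437904 on the plus strand, *Bmp15* on chromosome X from 6314107 to 6320721 on the minus strand, and *Kit* on chromosome 5 from 75574916 to 75656722 on the plus strand. *Bmp6* lies on chromosome 13 from 38345107 to 38500302 on the plus strand and *Fgf8* on chromosome 19 from 45736798 to 45742915 on the minus strand. For the first 3, the 30 bases that end with the last polyadenylation hexamer of the transcript follow, 5′ to 3′ on the strand of the gene, with the hexamer AATAAA in capitals. Also in capitals is the cytoplasmic polyadenylation element TTTTAT (with U for T in RNA), the textbook binding site of CPEB proteins.
Gdf9, 3′UTR, chr11:53437858-53437887: tgctgtggTTTTATgtgacggaagAATAAA
Bmp15, 3′UTR, chrX:6314129-6314158: ttatgtattttcttaatcttaaagAATAAA
Kit, 3′UTR, chr5:75656672-75656701: ctgttgacagttctgaagaattctAATAAA

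In *Gdf9* the element ended 10 bases before the hexamer, and the hexamer 17 bases before the end of the transcript. In *Bmp15* and *Kit* the hexamer lay 22 and 21 bases before the end and the element was not in the last 100 bases, although each had 3 copies elsewhere in the 3′UTR. *Bmp6* had 1 copy of the element in its last 100 bases, without the hexamer or its variant ATTAAA, and *Fgf8* had none of these motifs there. On the strand of the gene, the element was found in the last 100 bases of 15.3% of the 9913 3′UTRs long enough to search, the hexamer in 67.7% and its variant in 21.4%. The 3′UTRs were 360 bases long in *Gdf9*, 1523 in *Bmp15*, 1234 in *Bmp6*, 172 in *Fgf8* and 2177 in *Kit*, where the median of the 10417 tested genes with a 3′UTR was 973. A match is a description of the letters and not a site of binding.

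The 5 genes fell into a pair of abundant RNAs and 3 scarce ones. By mean FPKM, *Gdf9* ranked 46 of all genes in MII oocytes of either genotype and *Bmp15* 76 in CPEB3+/- and 80 in CPEB3-/- oocytes. In MII oocytes *Gdf9* lay above *Bmp15* in every library of either genotype, *Kit* came next, and *Fgf8* and *Bmp6* followed with ranges that overlapped. In 2cell embryos *Bmp15* lay above *Gdf9* in every library. The order below them differed by label, since in CPEB3+/- embryos the ranges of *Kit* and *Fgf8*, and of *Fgf8* and *Bmp6*, overlapped, while in CPEB3-/- embryos *Fgf8* lay above *Bmp6* and *Kit*, whose ranges overlapped. The estimated fragments behind a value were 541 to 15300 for *Gdf9* and 2200 to 14700 for *Bmp15*, but only 45.8 to 183 for *Kit*, 10.2 to 24.4 for *Bmp6* and 3.98 to 15.4 for *Fgf8*.

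**Figure D1:**
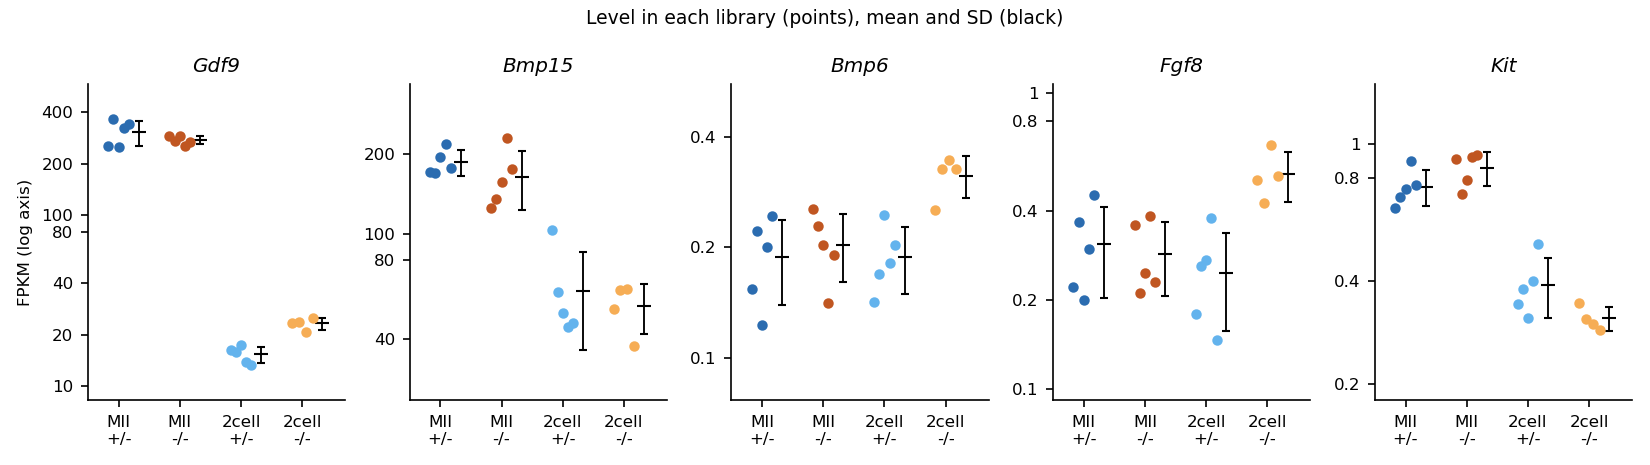
FPKM of each gene in each library (points) on a log axis, with the mean and SD of the group in black, for MII oocytes and 2cell embryos labelled CPEB3+/- and CPEB3-/-. *Gdf9* drops from 252 to 363 FPKM in MII libraries to 13.3 to 25.2 in 2cell libraries, *Bmp15* and *Kit* drop less, and *Gdf9*, *Bmp6* and *Fgf8* lie higher in every CPEB3-/- than in every CPEB3+/- 2cell library.

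*Gdf9* had 253, 363, 252, 324 and 339 FPKM in the CPEB3+/- MII libraries A to E and 289, 272, 288, 254 and 268 FPKM in the CPEB3-/- ones. As deposited, the genotypes overlapped, and the CPEB3-/- libraries all lay within the CPEB3+/- range. Group means were 306 FPKM ± 50.9 (SD, n = 5) and 274 ± 15.0 (n = 5), and the fitted log2 fold change was -0.24 (SE 0.0884, adjusted p = 0.075, limma). The overlap depended on the scaling. With the factors of the fit, CPEB3+/- libraries had 274 to 351 FPKM and CPEB3-/- libraries 255 to 273, without overlap, and the means differed by -49.7 FPKM (two-sided exact permutation test, p = 0.00794), where as deposited they differed by -31.6 (exact permutation p = 0.238). With the GC trend removed the log2 fold change was -0.38 (adjusted p = 0.00715, limma), still under 1.5-fold, and with quantile scaling it was 0.01. In 2cell embryos the values were 16.3, 15.7, 17.4, 13.9 and 13.3 FPKM in CPEB3+/- and 23.4, 23.8, 20.7 and 25.2 FPKM in CPEB3-/- libraries A to D. Every CPEB3-/- embryo library was above every CPEB3+/- one. The means were 15.3 FPKM ± 1.71 (n = 5) and 23.3 ± 1.88 (n = 4), and the two-sided exact permutation test gave p = 0.00794, the smallest that 126 splits allow. The fitted log2 fold change of 0.55 (SE 0.124, adjusted p = 0.0146, limma) was 1.46-fold and so under the 1.5-fold that the calls here require beside an adjusted p under 0.05. This side of the threshold depended on the scaling and the filter, since *Gdf9* was called with the values as deposited (log2 0.60), with scaling to the column sum (0.90) and with quantile scaling (0.73), and with a filter of 1 FPKM (0.67, adjusted p = 0.0054, limma), while the adjusted p was 0.0601 after removal of the trend with GC content, with a log2 fold change of 0.38. Without CPEB3+/- library A or C, or CPEB3-/- library C, the log2 fold change was 0.59, 0.59 and 0.61 and the gene was called.

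From MII to 2cell the fitted level of *Gdf9* fell by 4.55 on the log2 scale (SE 0.0871, adjusted p = 1.2e-17, limma) in CPEB3+/- and by 3.71 (SE 0.0924, adjusted p = 3.35e-16, limma) in CPEB3-/-, a 23.4-fold and a 13.1-fold fall. Only 18 of the 15786 genes tested fell further in CPEB3+/- (0.114%), and 81 in CPEB3-/- (0.513%). A gene scarce in MII oocytes cannot fall this far on the scale of log2(FPKM + 0.1). These shares therefore depend on the high level of *Gdf9* and do not rank its fall against that of scarce genes. The median gene had a log2 change of 0.20 in CPEB3+/- and 0.21 in CPEB3-/- on the same scale. Under the alternatives tried, the log2 change of *Gdf9* was -5.09 to -4.3 in CPEB3+/- and -4.13 to -3.56 in CPEB3-/-. The gap between the genotypes in this fall, which is the interaction of stage and genotype, was 0.84 (SE 0.127, adjusted p = 0.000722, limma) and *Gdf9* was called. It was called under all 9 other settings tried for this test and without any 1 of the 19 libraries, with log2 differences of 0.74 to 0.96 and adjusted p values from 0.00053 to 0.0172.

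**Figure D2:**
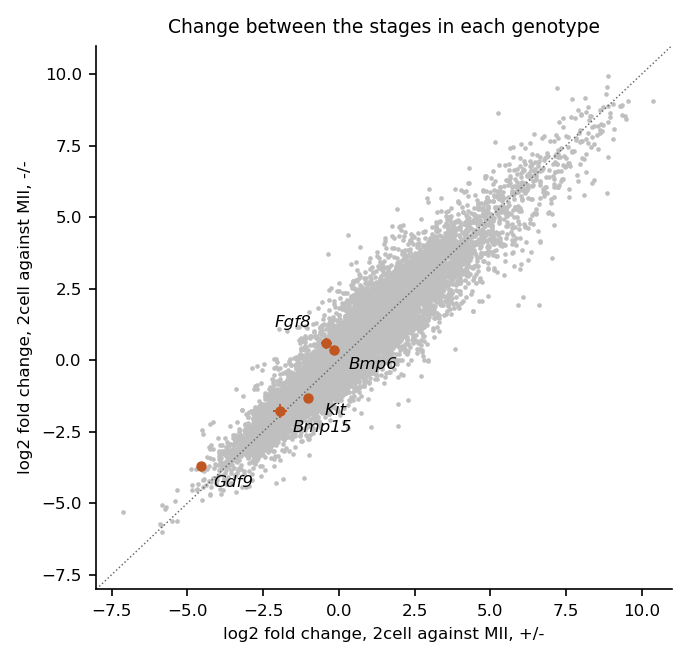
Log2 fold change from MII oocytes to 2cell embryos for every gene tested (grey), in CPEB3+/- on the x axis and in CPEB3-/- on the y axis, with the 5 genes in orange with 1 SE and the line of equal change dotted. *Gdf9* lies at -4.55 and -3.71, near the lower end of all genes and above the line, while *Bmp15* and *Kit* lie close to it.

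*Bmp15* had 172, 170, 196, 219 and 178 FPKM in the CPEB3+/- MII libraries A to E and 126, 135, 157, 230.0 and 176 FPKM in the CPEB3-/- ones. The genotypes overlapped widely, and the highest and the lowest values were both in CPEB3-/- libraries (D and A). The means were 187 FPKM ± 20.7 (SD, n = 5) and 165 ± 41.3 (n = 5), with a log2 fold change of -0.31 (SE 0.182, adjusted p = 0.242, limma). Without CPEB3-/- library D it was -0.45 (adjusted p = 0.0549, limma), and the difference of the means went from -22.1 FPKM (exact permutation p = 0.302) to -38.4 (exact permutation p = 0.0317). In 2cell embryos *Bmp15* had 104, 60.1, 50.03, 44.5 and 46.1 FPKM in CPEB3+/- and 51.8, 61.3, 62.0 and 37.7 FPKM in CPEB3-/- libraries. CPEB3+/- library A stood far above the other 4 of its group, and the genotypes overlapped. The log2 fold change was -0.20 (SE 0.283, adjusted p = 0.658, limma), and without library A it was 0.03. Between the stages *Bmp15* fell by 1.93 on the log2 scale (SE 0.228, adjusted p = 4.13e-07, limma) in CPEB3+/- and by 1.78 (SE 0.242, adjusted p = 2.72e-06, limma) in CPEB3-/-, and no 2cell library reached the lowest MII library. The interaction was 0.15 (SE 0.332, adjusted p = 0.831, limma), an error too wide to show whether the fall differed by the size seen for *Gdf9*.

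Since the products of *Gdf9* and *Bmp15* pair as a heterodimer, their FPKM were also divided within each library, which does not depend on any scaling between libraries. The ratio can still follow a trend with GC content, which was 53.0% in *Gdf9* and 42.5% in *Bmp15*. It was not recalculated with this trend removed. The ratio of *Bmp15* to *Gdf9* was 0.470 to 0.778 (median 0.676) in CPEB3+/- and 0.435 to 0.907 (median 0.544) in CPEB3-/- MII libraries. In 2cell embryos it was 6.37, 3.82, 2.87, 3.2 and 3.48 in CPEB3+/- libraries A to E and 2.21, 2.58, 3.0 and 1.5 in CPEB3-/- libraries A to D. The ratio was thus under 1 in all 10 MII libraries and over 1 in all 9 2cell libraries. The log2 ratio rose by 2.62 between the stages in CPEB3+/- and by 1.94 in CPEB3-/- (two-sided exact permutation tests, p = 0.00794 each, 0.0159 after adjustment over the 4 tests of this ratio). Between genotypes it differed by -0.07 in MII oocytes (exact permutation p = 0.77, adjusted 0.77) and by -0.75 in 2cell embryos (exact permutation p = 0.0238, adjusted 0.0317). In 2cell embryos CPEB3-/- library C lay within the CPEB3+/- range and the other 3 were below it. Without CPEB3+/- library A the difference was -0.56 (exact permutation p = 0.0571), and with the 9 embryo libraries left out in turn p was over 0.05 for 7 of them. The fitted log2 fold changes between the genotypes in 2cell embryos were -0.20 for *Bmp15* and 0.55 for *Gdf9*. With the GC trend removed they were 0.07 and 0.38.

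**Figure D3:**
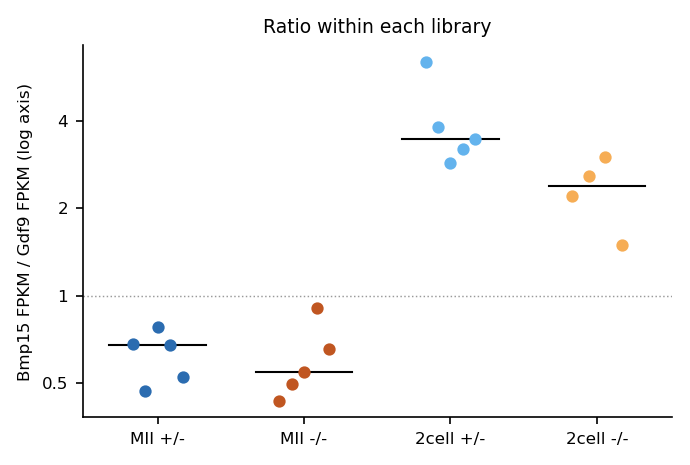
Ratio of *Bmp15* FPKM to *Gdf9* FPKM in each library (points) on a log axis, with the median of each group as a line. All MII libraries lie between 0.435 and 0.907 and all 2cell libraries between 1.5 and 6.37, with medians of 3.48 in CPEB3+/- and 2.39 in CPEB3-/- embryos.

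*Bmp6* was scarce in every library. It had 0.154, 0.221, 0.123, 0.20 and 0.243 FPKM in CPEB3+/- MII libraries A to E and 0.253, 0.229, 0.202, 0.141 and 0.191 FPKM in CPEB3-/- ones, and the genotypes overlapped (log2 fold change 0.02, SE 0.135, adjusted p = 0.941, limma). In 2cell embryos it had 0.142, 0.169, 0.245, 0.181 and 0.203 FPKM in CPEB3+/- and 0.253, 0.326, 0.346 and 0.327 FPKM in CPEB3-/- libraries. Every CPEB3-/- library was above every CPEB3+/- one, the nearest pair by 0.253 to 0.245. The means of 0.188 FPKM ± 0.0386 (SD, n = 5) and 0.313 ± 0.0410 (n = 4) gave an exact permutation p of 0.0159, but the fit across all genes gave a log2 fold change of 0.49 (SE 0.167) with an adjusted p of 0.0659 (limma), and *Bmp6* was not called. With scaling to the column sum it was called (log2 0.74, adjusted p = 0.0189, limma), and with all libraries in 1 fit the adjusted p was 0.0122 (limma) with a log2 fold change of 0.49, under 1.5-fold. After removal of the GC trend the log2 fold change was 0.15. Between the stages *Bmp6* was not called in either genotype, with log2 changes of -0.15 (SE 0.127, adjusted p = 0.293, limma) in CPEB3+/- and 0.34 (SE 0.135, adjusted p = 0.0312, limma) in CPEB3-/-, the latter under 1.5-fold. With quantile scaling it was called lower in CPEB3+/- (log2 -0.70, adjusted p = 5.15e-05, limma). Its last exon overlaps *Txndc5* on the other strand by 224 bases, and the sources used here do not state whether strand was counted. *Txndc5* had a log2 fold change of -0.02 between the genotypes in 2cell embryos.

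*Fgf8* had 0.222, 0.366, 0.20, 0.298 and 0.452 FPKM in CPEB3+/- MII libraries A to E and 0.359, 0.210, 0.247, 0.383 and 0.230 FPKM in CPEB3-/- ones. The genotypes overlapped over nearly their whole range (log2 fold change -0.14, SE 0.182, adjusted p = 0.618, limma). In 2cell embryos *Fgf8* had 0.18, 0.26, 0.272, 0.377 and 0.147 FPKM in CPEB3+/- and 0.507, 0.423, 0.666 and 0.523 FPKM in CPEB3-/- libraries. The 4 CPEB3-/- libraries lay above the highest CPEB3+/- library. The means were 0.247 FPKM ± 0.0898 (SD, n = 5) and 0.530 ± 0.101 (n = 4), with 3.98 to 10.0 fragments behind a CPEB3+/- and 10.6 to 15.4 behind a CPEB3-/- value. *Fgf8* was the 1 gene of the 5 that was called between the genotypes, with a log2 fold change of 0.84 (SE 0.221, adjusted p = 0.026, limma) in 2cell embryos. The call was lost with a pseudocount of 1 (log2 0.28), with no filter on low values (0.81), with the GC trend removed (0.33, adjusted p = 0.342, limma), with the replicate letter as a block (0.72, adjusted p = 0.117, limma) and without CPEB3+/- library E (0.73), CPEB3-/- library C (0.75) or D (0.86). In CPEB3-/- *Fgf8* was 0.59 higher in 2cell embryos than in MII oocytes on the log2 scale (SE 0.20, adjusted p = 0.0131, limma) and called, and in CPEB3+/- it was 0.41 lower (log2 fold change -0.41, SE 0.188, adjusted p = 0.0593, limma) and not called. This fall was called with scaling to the column sum (-0.78), with quantile scaling (-0.91) and with the GC trend removed (-0.79). The rise in CPEB3-/- was 0.27 with scaling to the column sum and 0.05 with quantile scaling, and turned to -0.08 with the GC trend removed. It was 0.58 with no filter or with the replicate letter as a block and 0.20 with a pseudocount of 1, under 1.5-fold. Without CPEB3-/- MII library B, C or E, or 2cell library C, it was 0.51 to 0.55, adjusted p of 0.0306 to 0.0441 (limma), and under 1.5-fold. The interaction was 1.0 (SE 0.274, adjusted p = 0.0321, limma) and called, and was no longer called without 9 of the 19 libraries taken 1 at a time, with an adjusted p of at most 0.0648 (limma). The call was also lost with values as deposited (adjusted p = 0.0562, limma), with no filter on low values (0.0514), with the replicate letter as a block (0.0646), with the GC trend removed (log2 0.72, adjusted p = 0.0983, limma) and with a pseudocount of 1 (log2 0.32, under 1.5-fold).

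*Kit* had 0.653, 0.704, 0.743, 0.893 and 0.762 FPKM in CPEB3+/- MII libraries A to E and 0.904, 0.716, 0.785, 0.920 and 0.934 FPKM in CPEB3-/- ones. The genotypes overlapped, with 3 CPEB3-/- libraries above all CPEB3+/- ones. The means were 0.751 FPKM ± 0.0896 (SD, n = 5) and 0.852 ± 0.0964 (n = 5) and the log2 fold change was 0.07 (SE 0.117, adjusted p = 0.678, limma). The means differed by 0.101 FPKM (exact permutation p = 0.119), and by 0.135 without CPEB3-/- library B (exact permutation p = 0.0476). With the factors of the fit they differed by 0.0469 FPKM (exact permutation p = 0.476). In 2cell embryos *Kit* had 0.343, 0.378, 0.313, 0.398 and 0.513 FPKM in CPEB3+/- and 0.346, 0.310, 0.2996 and 0.288 FPKM in CPEB3-/- libraries. The genotypes overlapped (log2 fold change -0.28, SE 0.166, adjusted p = 0.256, limma), also with the factors of the fit, where the means differed by -0.0919 FPKM (exact permutation p = 0.0397) and as deposited by -0.0783 (exact permutation p = 0.0635). Every 2cell library was below every MII library. *Kit* fell by 1.02 on the log2 scale (SE 0.126, adjusted p = 7.88e-07, limma) between the stages in CPEB3+/- and by 1.33 (SE 0.133, adjusted p = 5.3e-08, limma) in CPEB3-/-, with an interaction of -0.31 (SE 0.183, adjusted p = 0.326, limma). With a pseudocount of 1 these changes were -0.43 and -0.54, under 1.5-fold. *Kitl*, which encodes the ligand of KIT, did not pass the filter in either stage and was singled out after its values were seen. It had 0.0599 to 0.104 FPKM in CPEB3+/- and 0.0102 to 0.0557 in CPEB3-/- 2cell libraries, from 1.16 to 12.1 fragments.

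Counted over the 5 genes, 0 were called between the genotypes in MII oocytes by limma, with *Gdf9* alone at an unadjusted p under 0.05, where 5.59% of the 10515 genes tested were called higher and 7.29% lower. Of the 5, *Fgf8* was called higher in 2cell embryos and 0 lower, against 8.41% and 9.85% of the 14051 genes tested. In FPKM as deposited the genotypes did not overlap for 0 of 5 genes in MII oocytes, where this held for 16.3% of all genes tested, and for 3 of 5 in 2cell embryos, where it held for 20.0%. With the factors of the fit these were 1 of 5 (*Gdf9*) against 16.7% and 3 of 5 against 20.7%. Between the stages 3 of 5 were called lower in CPEB3+/- (*Gdf9*, *Bmp15* and *Kit*) and 0 higher, where 28.5% of all genes tested were called lower and 38.0% higher. In CPEB3-/- the same 3 were called lower and *Fgf8* higher, against 27.0% and 38.2%. The interaction was called for 2 of 5 (*Gdf9* and *Fgf8*), and for 7.64% of all genes. Each comparison between the stages shares its libraries with those between the genotypes, so the counts are not independent of each other.

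**Figure D4:**
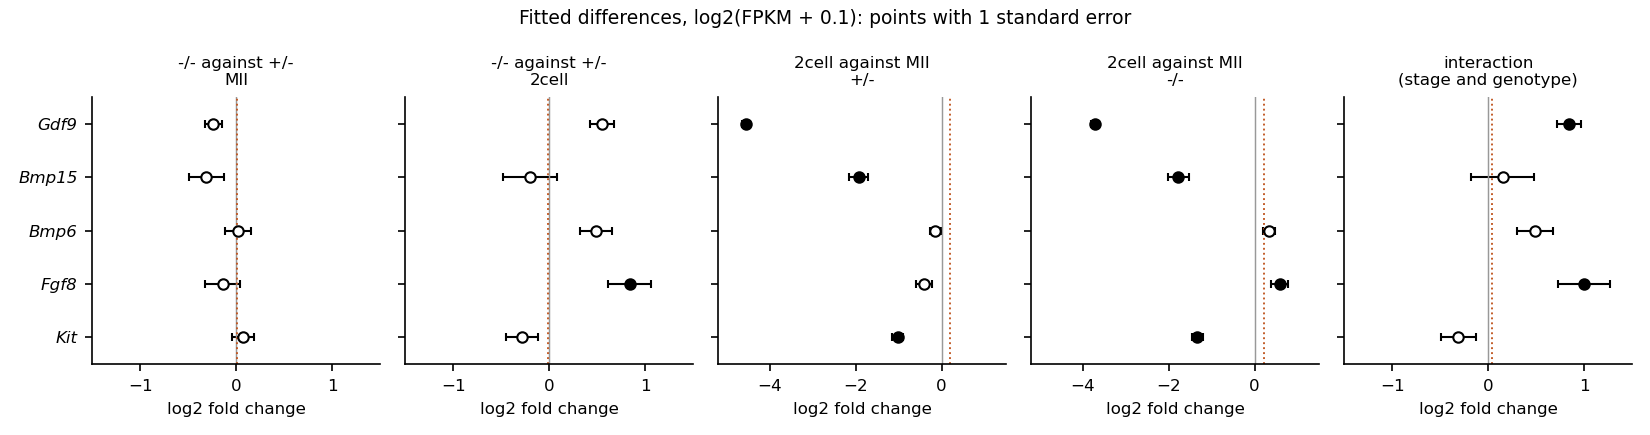
Fitted log2 fold change with 1 SE of each gene in the 5 comparisons, with filled points for genes called (adjusted p under 0.05 and over 1.5-fold, limma), a grey line at 0 and an orange dotted line at the median of all genes tested. The differences between the genotypes in MII oocytes lie within 0.31 of 0, while in 2cell embryos *Gdf9* (0.55), *Bmp6* (0.49) and *Fgf8* (0.84) lie above 0.

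Among the receptors and SMAD proteins that relay the signals of the TGF-β family, 11 of 21 genes were tested in MII oocytes and 0 were called (limma; 2 at an unadjusted p under 0.05), with a median log2 fold change of -0.09 where that of all genes was 0.01. In 2cell embryos 10 were tested, 1 was higher and 2 were lower in CPEB3-/-, beside 8.41% and 9.85% of all genes, with a median of 0.12 where all genes had -0.01. With scaling to the column sum, under which 17.3% of all genes were higher and 4.06% lower, 2 were higher and 1 was lower, and with quantile scaling 0 and 2. *Tgfbr1*, a type I receptor used by GDF9, had 0.548 FPKM ± 0.125 (SD, n = 5) in CPEB3+/- and 0.193 ± 0.0498 (n = 4) in CPEB3-/- embryos, without overlap, and was lower by a log2 fold change of -1.18 (SE 0.202, adjusted p = 0.00519, limma). *Bmpr1a*, a type I receptor of BMP ligands, was lower as well (log2 -0.59, adjusted p = 0.0361, limma). *Smad4*, the partner shared by the receptor-activated SMADs, had 0.163 FPKM ± 0.0377 and 0.315 ± 0.0218 and was higher (log2 0.63, adjusted p = 0.023, limma). Of 16 other ligands of the family, 3 were tested in MII oocytes and 4 in 2cell embryos, and 0 were called in either (limma; 1 and 2 at an unadjusted p under 0.05), with medians of -0.03 and 0.31. With scaling to the column sum 2 of the 4 were higher in 2cell embryos, with a median of 0.64. Of 12 genes of ligand processing and antagonists 3 were tested in each stage, with 0 called in MII oocytes (limma; 0 at an unadjusted p under 0.05; median -0.01) and 1 in 2cell embryos (median 0.53), or 2 with any other scaling. That gene was *Fstl3*, a follistatin-like binder of activin-type ligands, with 0.28 FPKM ± 0.205 and 0.840 ± 0.390 and overlapping ranges (log2 1.33, SE 0.403, adjusted p = 0.0438, limma).

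Of 32 genes of FGF ligands, receptors and their feedback inhibitors, 7 were tested in MII oocytes, with a median log2 fold change of 0.13, and 13 in 2cell embryos, with a median of 0.37. Over all genes the medians were 0.01 and -0.01. Of all genes 5.59% were called higher and 7.29% lower in MII oocytes, and 8.41% and 9.85% in 2cell embryos. All 4 FGF receptor genes *Fgfr1* to *Fgfr4* were below the filter in both stages. The gene called in MII oocytes was *Spry1*, a feedback inhibitor of receptor tyrosine kinase signalling, at 1.63 FPKM ± 0.266 (SD, n = 5) in CPEB3+/- and 0.972 ± 0.283 (n = 5) in CPEB3-/- (log2 -0.81, SE 0.201, adjusted p = 0.0194, limma). In 2cell embryos its relative *Spry4* was the gene called, at 14.1 FPKM ± 3.07 and 21.8 ± 1.21 without overlap (log2 0.59, SE 0.173, adjusted p = 0.0386, limma). The number called in 2cell embryos was 3 higher with values as deposited and with the column sum, and 2 higher and 1 lower with quantile scaling. Of all genes 9.34% were higher as deposited and 17.3% with the column sum, where the median was 0.26 and that of the list 0.55. With quantile scaling 8.47% of all genes were higher and 9.12% lower.

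Of 27 genes of KIT ligand and signalling, 18 were tested in MII oocytes (1 higher, 0 lower, median log2 0.02) and 22 in 2cell embryos (2 higher, 1 lower, median 0.02). The shares of all genes were 5.59% and 7.29% in MII oocytes and 8.41% and 9.85% in 2cell embryos. With scaling to the column sum 3 of 18 were higher in MII oocytes, where 10.6% of all genes were, and 5 of 22 were higher and 0 lower in 2cell embryos, where 17.3% and 4.06% were. *Tsc2*, which restrains mTOR through the small GTPase RHEB, was the gene called in MII oocytes, with 0.244 FPKM ± 0.0668 (SD, n = 5) in CPEB3+/- and 0.504 ± 0.213 (n = 5) in CPEB3-/- (log2 0.69, SE 0.211, adjusted p = 0.0412, limma). In 2cell embryos *Tsc2* had 0.723 FPKM ± 0.134 and 2.20 ± 0.28 without overlap, higher by 1.44 on the log2 scale (SE 0.16, adjusted p = 0.00107, limma). *Rheb* was lower there (log2 -0.86, adjusted p = 0.0082, limma), at 1.25 FPKM ± 0.181 and 0.671 ± 0.102. *Akt1*, a kinase below PI3K, was higher (log2 0.66, adjusted p = 0.0273, limma). Of 8 genes of the contact between oocyte and follicle cells, 5 were tested in MII oocytes with 0 called (limma; 2 at an unadjusted p under 0.05; median -0.05), or 1 higher with values as deposited or the column sum, and 7 in 2cell embryos (median -0.13). Connexin 37 (*Gja4*), the gap junction protein of the oocyte, was higher at 1.22 FPKM ± 0.281 and 2.31 ± 0.833 (log2 0.78, adjusted p = 0.0437, limma), and connexin 43 (*Gja1*), that of granulosa cells, was lower at 0.457 ± 0.0921 and 0.213 ± 0.0306 (log2 -0.86, adjusted p = 0.00948, limma). Of these 12 calls in the lists, none turned its sign under any setting tried. With another scaling *Bmpr1a* (values as deposited, column sum), *Smad4* (quantile) and *Rheb* (column sum) were no longer called, and with the GC trend removed 6 of 12 were lost (*Tsc2* in MII oocytes, *Bmpr1a*, *Fstl3*, *Spry4*, *Akt1* and *Gja4*). With no filter on low values 6 were lost as well, the same genes but with *Smad4* in place of *Akt1*. *Bmpr1a* was also lost with all libraries in 1 fit, and was called in 2 of 9 other settings. With a pseudocount of 1, and likewise with the replicate letter as a block, 11 of the 12 were lost, and *Tsc2* in 2cell embryos was the 1 still called. Leaving out any 1 library of the stage kept *Tgfbr1*, *Gja1*, *Rheb* and, in 2cell embryos, *Tsc2*, while *Spry1* was lost without CPEB3+/- library C, and *Smad4* without any of 4 libraries, *Akt1* 5, *Fstl3* 6 and *Bmpr1a*, *Spry4*, *Gja4* and *Tsc2* in MII oocytes 7.

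**Figure D5:**
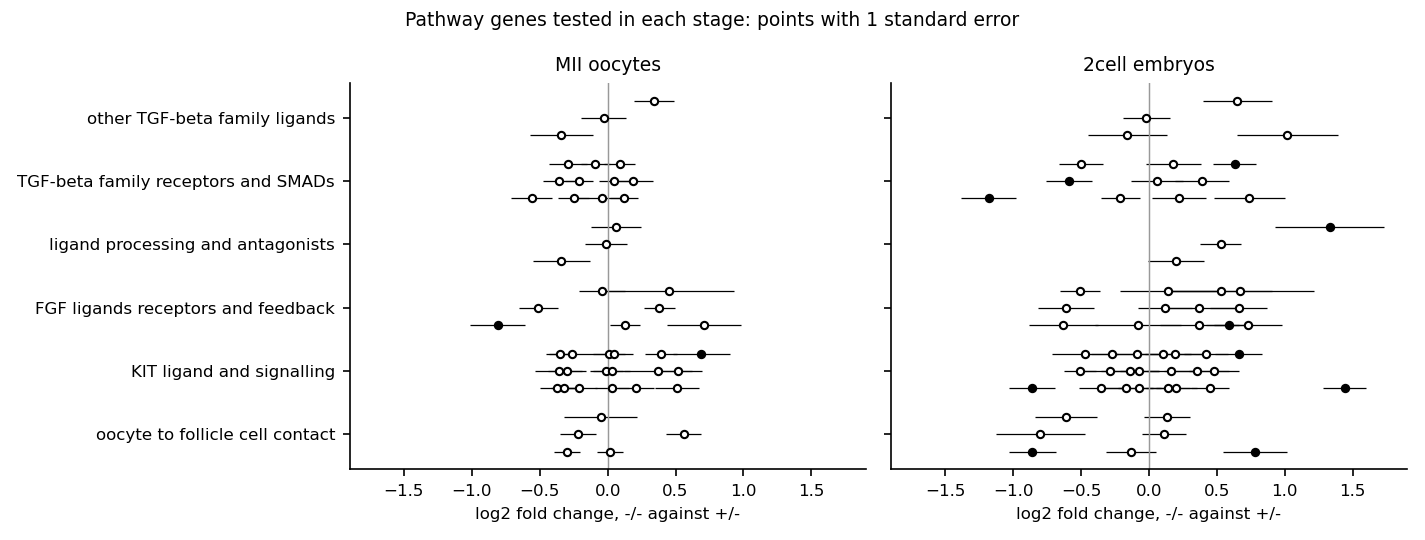
Log2 fold change with 1 SE between CPEB3-/- and CPEB3+/- for the tested genes of each list, in MII oocytes and in 2cell embryos, with filled points for genes called (limma). The called genes are 2 in MII oocytes (*Spry1* and *Tsc2*) and 10 in 2cell embryos, where *Tsc2* (1.44) and *Fstl3* (1.33) lie highest and *Tgfbr1* (-1.18) lowest.

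Between the stages the lists were counted in the same way, beside 28.5% of all genes lower and 38.0% higher in CPEB3+/- (median 0.20) and 27.0% and 38.2% in CPEB3-/- (median 0.21). Other scalings moved all genes as well. With quantile scaling 39.5% were lower and 28.1% higher in CPEB3+/- (median -0.24) and 39.1% and 27.9% in CPEB3-/- (median -0.26), and with scaling to the column sum 37.6% and 31.5% (median -0.17) and 35.3% and 33.7% (median -0.07). Of 15 tested receptors and SMADs, 10 were called lower and 3 higher at the 2cell than at the MII stage in CPEB3+/-, with a median log2 change of -0.86, and 8 and 2 in CPEB3-/-, with a median of -0.66. Of 14 tested FGF genes, 2 were lower and 7 higher in CPEB3+/- (median 0.59) and 2 and 9 in CPEB3-/- (median 0.88). With quantile scaling the FGF counts were 3 and 3 (median 0.20) and 4 and 4 (median 0.46). The KIT list had 7 of 22 lower and 5 higher in CPEB3+/- (median 0.04) and 5 and 4 in CPEB3-/- (median 0.19), and both medians were below 0 with scaling to the column sum (-0.21 and -0.05) and with quantile scaling, where 10 and 9 were lower and 3 higher in each. The contact list had 4 of 8 lower and 1 higher in each genotype (medians -0.75 and -0.61), and with quantile scaling 5 and 7 of 8 were lower (medians -1.25 and -1.06). The antagonists had 3 of 4 lower and 1 higher in CPEB3+/- (median -1.08) and 2 and 1 in CPEB3-/- (median -0.54), and the other ligands 1 of 4 lower and 1 higher in CPEB3+/- (median 0.40, but -0.07 with scaling to the column sum) and 1 and 3 in CPEB3-/- (median 0.75). In CPEB3+/- 3 of the other ligands were higher with values as deposited and 0 with quantile scaling, and in CPEB3-/- 1 was higher with the column sum or quantile scaling. The interaction, called for 7.64% of all genes, was called for 2 of 15 receptor and SMAD genes, 1 of 4 antagonists, 1 of 14 FGF genes and 1 of 8 contact genes, and for 0 of 22 KIT genes and 0 of 4 other ligands (limma; 3 and 1 at an unadjusted p under 0.05). With scaling to the column sum the FGF and contact calls were lost and 1 other ligand was called. With quantile scaling 1 KIT gene and 1 receptor or SMAD gene were called, and with values as deposited 1 receptor or SMAD gene, while the counts of the lists not named here were the same under each scaling.

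The genes whose profile over the 19 libraries was most like that of each member were found by the root mean square difference of log2 values, each gene centred on its own mean, among 9334 genes tested in both stages. For *Gdf9* they were *Txnip* (0.238), *Dnmt1* (0.254) and *Jkamp* (0.276), and for *Bmp15* *Trim60* (0.19), *Osgepl1* (0.195) and *Dph6* (0.208). For *Bmp6* they were *Ccdc6* (0.121), *Foxo3* (0.127) and *Zdhhc5* (0.129), for *Fgf8* *Tacc1* (0.234), *Gm4961* (0.261) and *Dazap1* (0.276), and for *Kit* *Cct5* (0.15), *Rragc* (0.173) and *Cep41* (0.175). *Txnip*, the nearest to *Gdf9*, had 46.1 and 54.96 FPKM in CPEB3+/- and CPEB3-/- oocytes and 2.45 and 4.49 FPKM in the embryos. Between *Gdf9* and *Bmp15* the difference was 1.24, and 975 genes were nearer to *Gdf9* than *Bmp15* was. Between *Bmp15* and *Kit* it was 0.507, and between *Bmp6* and *Fgf8* 0.311.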

How the data were processed

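RNA of MII oocytes and 2cell embryos was measured in the 19 labelled libraries, although the methods give quadruplicates. Per the labels and methods, the authors prepared cDNA with a SMART-seq v4 kit, trimmed the reads with Trim Galore 0.4.1, aligned them to GRCm38 with HISAT2 2.0.5 and quantified genes in SeqMonk as the deposited FPKM. The gene annotation and any use of strand are not given in the sources used here. The labels name a NovaSeq sequencer and the methods a HiSeq X. The deposited table is named as raw counts, but only 0.00203% of its values are whole numbers above 0, and it was read as FPKM. Tests that need counts were therefore not run. Depth was estimated from the steps between low values of 9256 genes with 1 annotated transcript and is approximate, since FPKM hold no depth of their own. No column of values was left out.

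Genes with at least 0.1 FPKM in 5 MII libraries, 4 2cell libraries or 4 of all libraries were tested, and all 5 genes passed in each. Scaling factors between libraries came from trimmed log ratios (30% of the ratios and 5% of the levels trimmed), and log2(FPKM + 0.1) was fitted with limma 3.58.1 in R 4.3.3 with a variance trend and Benjamini-Hochberg adjustment over all genes tested. Fold changes are on this scale, which understates those of scarce genes. Genes with an adjusted p under 0.05 and over 1.5-fold were called. Differences between the genotypes came from fits of 1 stage, and those between the stages, and the interaction, from 1 fit of all 19 libraries. Tests of 1 value were exact permutation tests, two-sided, with 252 or 126 splits. The alternatives were other scalings, a pseudocount of 1, other filters, other libraries in the fit, no fold threshold, a replicate block, removal of the trend with GC content (loess, span 0.5) and leaving out each library. The fits were tested on simulated data.

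The 5 genes and the pathway and marker lists were chosen with earlier results of these data known. Named beside them are *Cpeb3*, up to 3 called genes with the largest change per list and genotype comparison, and the 3 genes with the nearest profile. *Kitl* and *Txndc5* lie outside these rules and were named after their values were seen. Motifs were searched in the 3′UTR of the longest protein-coding transcript of each gene in GENCODE vM21. Python 3.11.15, numpy 2.4.6, pandas 2.3.3 and matplotlib 3.10.9 were used.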

Additional observations from a re-analysis of the deposited data

Results flagged for a closer look

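The fall of *Gdf9* between the stages differed between the genotypes, since its genotype difference in 2cell embryos exceeded that in MII oocytes by 0.84 on the log2 scale (limma, adjusted p = 0.000722). For *Fgf8* the same difference was 1.0 (limma, adjusted p = 0.0321), from values of at most 15.4 estimated fragments. The *Fgf8* difference was no longer called with a pseudocount of 1, with the replicate block, with all genes kept, with unscaled FPKM or with the GC trend removed (limma, adjusted p = 0.0983 in the last), nor when any of 9 libraries was left out.

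Within the groups, the FPKM of the 5 genes and the log2 ratio of *Bmp15* to *Gdf9* were examined for a library far from the others in 24 sets of values, where chance alone singles out about 1 in 20. *Bmp15* in CPEB3+/- 2cell library A, at 104 FPKM against 44.5 to 60.1 in the other 4, was the 1 set in which the gap to the nearest library, 0.736 of the range, passed the critical value of 0.71 for 5 libraries.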

How the results depend on the processing

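The counts of genes called (1355 between the genotypes in MII oocytes, 2565 in 2cell embryos, 10509 and 10282 between the stages in CPEB3+/- and CPEB3-/-, 1206 for the interaction) were 481, 1178, 5292, 5269 and 791 with a pseudocount of 1 and 774, 1496, 5283, 5146 and 794 with a filter of 1 FPKM, which tests fewer genes. With no fold threshold the count in MII oocytes was 2247. Higher calls made up 43.4% in MII oocytes, 46.0% in 2cell embryos and 57.2% and 58.6% between the stages, and 70.1%, 81.0%, 45.6% and 48.9% with scaling to the column sum, which moved the median gene in MII oocytes from 0.01 to 0.15, in 2cell embryos from -0.01 to 0.26 and from 0.20 to -0.17 and 0.21 to -0.07 between the stages. Quantile scaling moved the latter to -0.24 and -0.26, with 41.5% and 41.6% higher, and values as deposited gave 57.1% higher in MII oocytes. For the interaction, higher calls made up 48.6%, and 66.0% with scaling to the column sum. The cause of these shifts was not tested.

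With the replicate block (the letter A to E of the label) 824 genes were called in MII oocytes, 414 in 2cell embryos and 827 for the interaction. Over all genes, samples of a letter did not deviate together (r from -0.144 to 0.0934), but some genes may have. Of the members, 0 were then called in 2cell embryos (*Fgf8* log2 0.72, adjusted p = 0.117, *Gdf9* 0.49, adjusted p = 0.12, limma) and 1, *Gdf9*, for the interaction, and *Fgf8* fell under 1.5-fold between the stages in CPEB3-/-. Of the 12 calls in the pathway lists 11 were lost with the block, and 11 with a pseudocount of 1.

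Of the 5 members, the number called in 2cell embryos was 1 (*Fgf8*, or *Gdf9* with a filter of 1 FPKM), and 2 with values as deposited, with quantile scaling and with no fold threshold, 3 with the column sum (*Bmp6* among them), and 0 with a pseudocount of 1, with no filter and with the GC trend removed. Leaving out 1 library gave 0 to 2. Of all genes tested 18.3% were called, and 17.9% as deposited, 17.6% with quantile scaling, 20.2% with no fold threshold and 21.3% with the column sum. The share was 8.38% with a pseudocount of 1, 7.8% with no filter, 13.0% with the GC trend removed and 26.6% with a filter of 1 FPKM. Between the stages in CPEB3+/- the number of members called was 3, and 5 with quantile scaling, 4 with the column sum and with the GC trend removed, and 2 with a pseudocount of 1 (without *Kit*) and with a filter of 1 FPKM. Of all genes 66.6% were called, and 67.6% with quantile scaling, 69.1% with the column sum and 66.2% with the GC trend removed. The share was 33.5% with a pseudocount of 1 and 77.2% with a filter of 1 FPKM. In CPEB3-/- the number of members called was 4, and 3 with the column sum, quantile scaling, no filter, the replicate block or the GC trend removed, 5 with no fold threshold, and 2 with a pseudocount of 1 and with a filter of 1 FPKM, which leaves out the 3 scarce genes. Of all genes 65.1% were called, and 69.0% with the column sum, 67.0% with quantile scaling, 64.6% with the replicate block and 64.5% with the GC trend removed. The share was 42.2% with no filter, 71.8% with no fold threshold, 33.4% with a pseudocount of 1 and 75.2% with a filter of 1 FPKM. For the interaction it was 2, and 1 with values as deposited, a pseudocount of 1, no filter, a filter of 1 FPKM or the GC trend removed, and 1 to 2 with 1 library left out.

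Signs turned in values that had not been called, with 1 exception (*Fgf8*). *Bmp6* in MII oocytes was -0.01 with quantile scaling, -0.0016 with no filter, -0.0012 with all libraries in 1 fit and -0.21 with the GC trend removed, and -0.05 to 0.09 with 1 library left out. *Gdf9* in MII oocytes was 0.01 with quantile scaling, and at the other end -0.38 with the GC trend removed (adjusted p = 0.00715, limma). *Bmp15* in 2cell embryos was 0.15 with the column sum, 0.05 with quantile scaling, 0.07 with the GC trend removed and -0.29 to 0.03 with 1 library left out, and its interaction -0.02 to 0.37. *Bmp6* between the stages was 0.01 in CPEB3+/- as deposited (and -0.70, called, with quantile scaling), and in CPEB3-/- -0.24 with quantile scaling and -0.07 with the GC trend removed. *Fgf8* between the stages in CPEB3-/-, a called value, was -0.08 with the GC trend removed. With 1 library left out, mean FPKM differed between the genotypes by -11.7 to 3.0 for *Bmp15* in 2cell embryos and, in MII oocytes, by -0.00124 to 0.0306 for *Bmp6* and -0.0488 to 0.0142 for *Fgf8*. The log2 ratio of *Bmp15* to *Gdf9* then differed by -0.22 to 0.04 at the MII stage and by -0.89 to -0.56 at the 2cell stage. Over all results for single genes, those above included, 549 recalculations kept the sign and the side of the threshold, 50 changed the side and 21 turned the sign.

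The depth limits *Fgf8* and *Bmp6*, whose values rest on 3.98 to 24.4 estimated fragments, and the 4 or 5 libraries of a group limit all tests.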
